A study of Mus musculus with 18 samples.

Results

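WT E14 mESCs, a mouse embryonic stem cell line from the blastocyst, were compared at day 2 and at day 0 of differentiation in 4 of the 18 RNA-seq libraries of the series, chosen by their genotype and day labels. Per the labels, the cells grew in serum with LIF on mitotically inactivated MEFs, and at day 2 they had been without LIF and without MEFs for 2 days. The methods of the study also name growth on gelatin without feeders, but its legend for the RNA-seq counts the days from withdrawal of LIF and MEFs. Neither says whether feeder cells were removed before the RNA of day 0 was taken. Each day had 2 biological replicates, and the labels do not say whether these came from separate cultures or from separate passages. The p-values therefore measure the spread between libraries. That spread was estimated over all 18 libraries in 6 groups of genotype and day, not from these 4 alone. The 2 clonal KO lines described below shared a group at each day, so the spread also holds differences between them. The other libraries were WT cells at day 4 and 2 clonal Nsd1-KO lines, KO-1 and KO-2, each at day 0, 2 and 4 with 2 biological replicates. The KO lines carried a homozygous deletion of exon 5 of Nsd1 and, by the methods of the study, were derived from cells with a Flag tag knocked in at Nsd1. The study describes tagged cells as the WT comparator of the KO lines in an immunoblot, and does not say separately whether the WT cells of the RNA-seq carried the tag. All groups were E14 cells under the same protocol. Loss of LIF, loss of the feeder layer with any RNA from it, and replating all fall between day 0 and day 2. Their parts in a difference cannot be told apart.

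mESCs in LIF and serum are held in or near the naive state of the preimplantation epiblast. LIF binds Lifr and Il6st at the cell surface, JAK kinases phosphorylate STAT3, and STAT3 activates Klf4, Tfcp2l1 and its own inhibitor Socs3. Without LIF, FGF-ERK signalling moves the cells into the formative state of the early postimplantation epiblast, in which the naive factors are lost, Fgf5, Otx2, Pou3f1 and the de novo DNA methyltransferases come on, and Pou5f1 is kept. The lineages of gastrulation, with T and Eomes in the primitive streak, follow later.

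The data are VST values, counts that the authors normalized for depth and put on a log2 scale, for 20703 genes. Inverting them gave the counts, which summed to 17810652 and 10522426 in the WT libraries of day 0 and to 9309874 and 9356867 in those of day 2, the latter being the 2 smallest of the series. Levels are given as normalized counts in the order of the replicates. They are not divided by transcript length, so levels are compared between days and not between genes. Log2 fold changes are differences of VST values, which are compressed for weakly expressed genes, and the folds given beside them are ratios of mean normalized counts. A gene was called where its adjusted p was under 0.01 (limma with Benjamini-Hochberg adjustment over all genes) and its absolute log2 fold change was over 0.58.

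By day 2, 17 of 20 listed naive genes had fallen and 13 of 16 genes of the formative and primed epiblast had risen. Both lists were chosen with earlier results of these data known. In all, 1383 genes (6.68%) were called, 551 higher (2.66%) and 832 lower (4.02%), and the log2 fold changes of the 20703 genes had a median of 0.0073. The 2 libraries of day 2 lay on one side of both libraries of day 0 for all 1383, an arrangement also found in 68.1% of all genes. Of the called genes, 24 fell and 10 rose by more than 2 on the log2 scale. By the fold change of limma-voom, 115 of the genes called by both fits fell more than 10-fold and 68 rose more than 10-fold. limma-voom on the counts called 4043 genes (19.5%), with 48.7% of them higher in place of 39.8%, and 1378 of the 1383 were among them in the same direction.

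**Figure D1:**
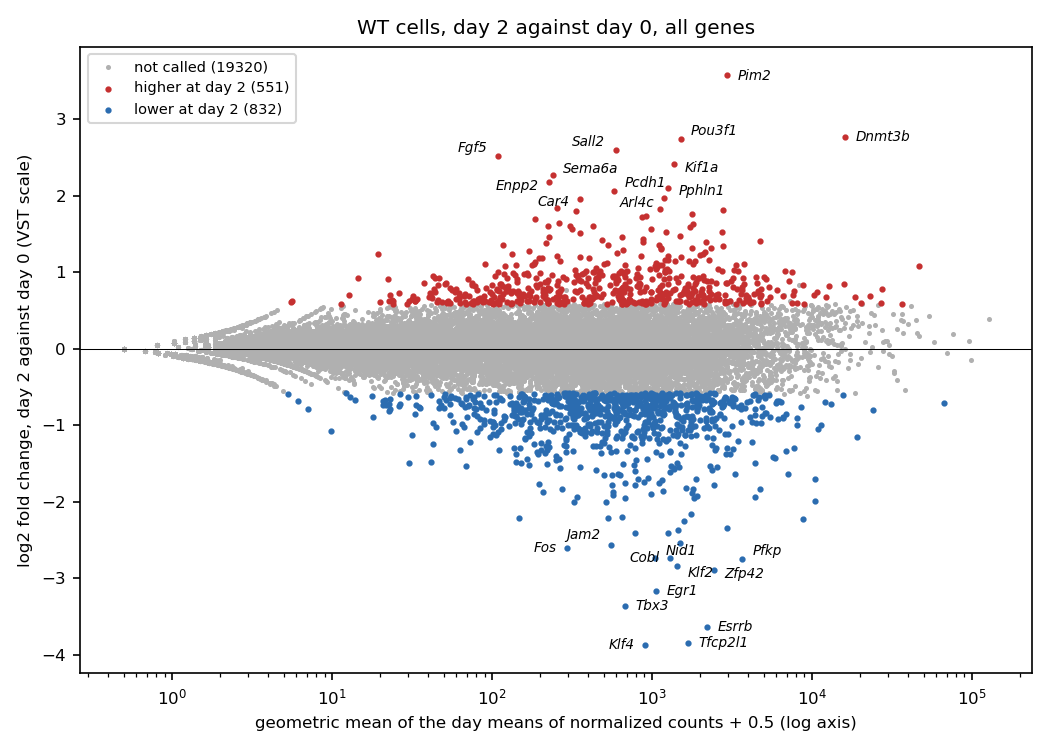
Log2 fold change of each gene from day 0 to day 2 in WT cells on the VST scale, against the geometric mean of its normalized counts plus 0.5 on a log axis, with the 551 genes called higher in red and the 832 called lower in blue. The 12 largest rises and the 12 largest falls are named, and Pim2 at 3.57 and Klf4 at −3.87 stand at the ends.

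The most negative log2 fold change on the VST scale was that of Klf4 (ENSMUSG00000003032), a zinc finger factor of the naive state that STAT3 activates. It had 7709 and 7829 normalized counts at day 0 and 97.8 and 113 at day 2. The replicates of a day were close together and the days far apart, a 73.6-fold fall that left 1.36% of the level of day 0 (log2 fold change −3.87, SE 0.13, limma with Benjamini-Hochberg adjustment, adjusted p = 7.87e-15). Tfcp2l1 (ENSMUSG00000026380), the other main transcription factor downstream of STAT3, went from 10411 and 10715 to 227 and 303. Esrrb (ENSMUSG00000021255), an orphan nuclear receptor of the naive network, went from 11570 and 11375 to 437 and 420. In both genes the libraries of day 2 lay more than an order of magnitude below those of day 0, by 39.9-fold in Tfcp2l1 and 26.8-fold in Esrrb (log2 fold changes −3.84 and −3.64). Tbx3, a T-box factor that sustains Nanog, fell 55.3-fold from 5033 and 5032 to 92.9 and 89.1.

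The libraries of day 0 held the markers that their mESC label calls for, among them Zfp42, Nanog and Pou5f1 with the levels given here. Of the 20 naive pluripotency genes, 17 were called lower and none higher, all 20 had a negative fold change, and their median was −1.92 beside 0.0073 for all genes. Zfp42, also known as Rex1 and a marker of naive cells, fell 12.6-fold from 8633 and 8784 to 670 and 716. Klf2, a Krüppel-like factor of ground state cells, fell 16.1-fold to 332 and 387. Nanog fell less deeply, from 8008 and 7928 to 1067 and 1130, a 7.25-fold fall (log2 fold change −2.35, SE 0.15). Prdm14, which keeps FGF signalling and DNA methylation low, had 479 and 440 at day 0 and 3.26 and 3.24 at day 2. Pecam1, an adhesion receptor found on naive cells, fell 10.3-fold from 2264 and 2085 to 212 and 211. Fgf4, the FGF ligand that mESCs themselves make, fell by less, 3.79-fold, from 5065 and 4929 to 1362 and 1276. The list was therefore not lost evenly, and the 3 members that were not called included 2 that were weak at day 0, Dppa3 with 92.3 and 79.1 and Spic with 52.0 and 83.4. The third was strong, and Dppa5a, an RNA-binding protein of pluripotent cells, had 11321 and 12008 at day 0 and 8428 and 6370 at day 2.

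**Figure D2:**
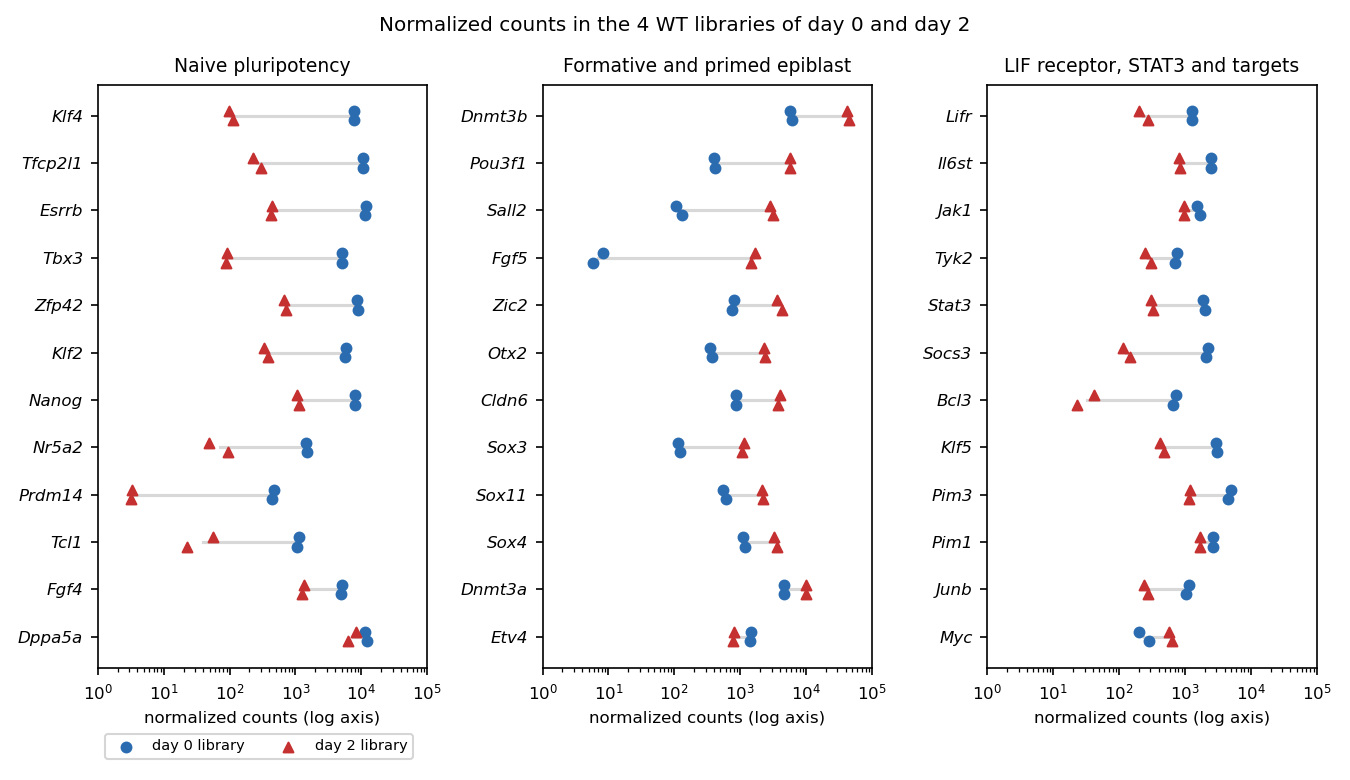
Normalized counts on a log axis in each of the 2 WT libraries of day 0 (circles) and the 2 of day 2 (triangles) for 12 naive genes, 12 formative genes and 12 genes of the LIF pathway, with a grey line joining the day means. The naive genes sit to the left at day 2, from 1.36% of the level of day 0 in Klf4. The formative genes shown sit to the right, except for Etv4.

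Genes of the LIF receptor complex and targets of STAT3 were among those that fell. Of 8 genes of the receptor and the pathway to STAT3, 4 were called lower and none higher, with a median of −0.61, and limma-voom called 6 lower and 1 higher, with a median of −1.49. Stat3 itself had 1901 and 2003 normalized counts at day 0 and 303 and 331 at day 2, a 6.16-fold fall (log2 fold change −1.60, SE 0.08, limma with Benjamini-Hochberg adjustment, adjusted p = 5.51e-12). Lifr, the ligand-binding chain, had 1292 and 1305 at day 0 and 199 and 272 at day 2, a 5.51-fold fall. Il6st, also known as gp130 and the chain shared with other cytokines, fell 3.02-fold from 2481 and 2520 to 805 and 853. Of the kinases, Tyk2 fell 2.66-fold, and Jak1 went from 1510 and 1680 to 955 and 974 without being called (log2 fold change −0.50). The days did not overlap in any of the 8, an arrangement found in 68.1% of all genes.

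Of 12 genes known as targets of LIF and STAT3 in mESCs, 8 were called lower and 1 higher, with a median of −1.54. Klf4 and Tfcp2l1 also stand among the naive genes, as does Klf5, a Krüppel-like factor that supports self-renewal, which fell 6.65-fold from 2998 and 3028 to 420 and 486. Socs3, the feedback inhibitor of the receptor, fell 16.9-fold, from 2279 and 2122 to 114 and 146 (log2 fold change −2.21, SE 0.08). Bcl3, an IkB family cofactor, went from 734 and 650 to 42.4 and 22.7, and Pim3, a serine/threonine kinase, from 4982 and 4486 to 1199 and 1167. The days were well apart in these genes, but Pim1, the related kinase, had 2669 and 2716 at day 0 and 1696 and 1705 at day 2 and was not called. Myc, which LIF is known to sustain, was the one member called higher, from 200 and 282 to 569 and 648 (log2 fold change 0.64, SE 0.12). Its fold change was 0.54, under the threshold, without the first library of day 0. Both libraries of day 2 were above both of day 0.

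The promoters of these target genes were searched for TTCNNNGAA, the core letters of a STAT binding site, which read the same on both strands. The promoter was the stretch from 250 bases before to 50 bases after the start of the gene in RefSeq (GRCm38.p6, while the authors aligned reads to mm39). Of the 12 genes, 10 had a promoter in that table and 3 held the letters (30.0%), beside 2582 of 27025 genes overall (9.55%). These 3 windows are shown because they place the searched letters in genes of the list, in capitals, on the strand of the gene. The capitals start 17 bases before the gene start in the first window, at chr7:28379228-28379254 (minus strand), 223 bases before it in the next, at chr10:21881952-21881978 (plus strand), and 154 bases before it in the last, at chr11:117969503-117969529 (minus strand).
Zfp36: cagcctgacTTCTGCGAAccgacagtc
Sgk1: aaaaaccaaTTCAAAGAAccctcccaa
Socs3: aaaccagccTTCTTAGAAgggaggggg
Socs3 is described above. Sgk1, a serum-induced kinase, fell 6.15-fold, from 2756 and 2705 normalized counts to 482 and 405, and Zfp36, which destabilizes cytokine mRNAs, stayed at 309 and 301 against 271 and 256 and was not called. A match of letters is a description and does not show a binding site.

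Immediate early genes are induced within minutes of growth factor signalling. Of 14 measured, 7 were called lower and none higher, with a median of −0.46. Egr1, a target of ERK, fell 28.2-fold, from 5755 and 5530 normalized counts to 174 and 225 (log2 fold change −3.16, SE 0.09, limma with Benjamini-Hochberg adjustment, adjusted p = 7.47e-16). Fos had 2176 and 2210 at day 0 and 42.4 and 35.7 at day 2, and Fosb had 1323 and 1265 at day 0 and 19.6 and 13.0 at day 2. These were as deep as the falls of the naive factors, at 56.2-fold for Fos and 79.6-fold for Fosb. Junb, also in the STAT3 list, fell 4.22-fold, and Jun went from 619 and 613 to 477 and 464 without being called.

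The core of pluripotency was kept in part. Pou5f1 (ENSMUSG00000024406), which encodes Oct4, had 9073 and 9276 normalized counts at day 0 and 9384 and 8388 at day 2, so that the days overlapped (log2 fold change −0.04, SE 0.10, limma with Benjamini-Hochberg adjustment, adjusted p = 0.753). Sox2, its partner, fell 4.67-fold to 2032 and 2063. Tdgf1, a co-receptor for Nodal also known as Cripto, fell 4.37-fold from 21067 and 22744 to 5130 and 4895. Of the 12 core genes, 3 were called lower (with Dppa4, a chromatin protein) and 2 higher, with a median of −0.11. The 2 that rose were Foxd3, a forkhead factor of the epiblast, from 414 and 377 to 994 and 1024, and Lin28a, which blocks let-7 processing, from 7933 and 8572 to 12806 and 15698. The call of Lin28a was lost when the first or the second library of day 0 or the second of day 2 was left out, with fold changes of 0.69, 0.79 and 0.60. Utf1 and Sall4, transcriptional regulators of pluripotent cells, had log2 fold changes of 0.12 and −0.22 and were not called.

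Of 16 genes of the formative and primed epiblast, 13 were called higher and none lower, with a median of 1.40. Dnmt3b (ENSMUSG00000027478), a de novo DNA methyltransferase, rose 7.41-fold from 5743 and 6071 normalized counts to 42343 and 45174 (log2 fold change 2.76, SE 0.09, limma with Benjamini-Hochberg adjustment, adjusted p = 2.36e-15). Fgf5 (ENSMUSG00000029337), the classical marker of the postimplantation epiblast, went from 8.39 and 5.75 to 1674 and 1467. It was the steepest rise of the list in normalized counts, 222-fold from under 9 normalized counts, which the VST scale compresses to 2.52 (SE 0.21). Pou3f1, a POU factor also known as Oct6, rose from 394 and 414 to 5645 and 5713. Otx2, which opens formative enhancers, rose 6.51-fold from 343 and 377 to 2275 and 2415.

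Further members rose with them. Sall2, a zinc finger factor of the Sall family, rose 24.9-fold from 106 and 132 to 2800 and 3123, and Zic2, a zinc finger factor of the epiblast and neural plate, rose 5.06-fold. The SoxB1 gene Sox3 rose 9.34-fold from 112 and 121 to 1124 and 1054, in the libraries in which its relative Sox2 fell. The SoxC genes Sox4 and Sox11 rose 3.00-fold and 3.76-fold. The 3 members not called were Cdh2 or N-cadherin, at 99.8 and 87.8 against 280 and 301 (log2 fold change 0.55), Etv4, an ETS factor downstream of FGF, at 1448 and 1434 against 802 and 788 (−0.58), and Tcf15, a bHLH factor that primes naive cells, at 916 and 855 against 556 and 481 (−0.45). Their libraries did not overlap between days, as in 68.1% of all genes, and Etv4 and Tcf15 were the 2 members with a negative fold change. Lef1, a transcription factor of the Wnt pathway, rose from 158 and 148 to 388 and 468, and its fold change of 0.60 fell to 0.53, under the threshold, without the second library of day 2.

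On the VST scale the largest rise of all genes was outside the lists, in Pim2 (ENSMUSG00000031155), a serine/threonine kinase that promotes survival, which went from 680 and 601 normalized counts to 13922 and 13435 (21.3-fold, log2 fold change 3.57, SE 0.11, limma with Benjamini-Hochberg adjustment, adjusted p = 1.84e-15). Its family members Pim1 and Pim3 did not rise. Kif1a, a kinesin of axonal transport, rose 10.7-fold from 432 and 413 to 4238 and 4815. Sema6a, a transmembrane semaphorin, rose 44.3-fold from 38.6 and 33.1 to 1524 and 1650. Enpp2, which makes lysophosphatidic acid, rose 41.0-fold, Car4, a membrane-bound carbonic anhydrase, 17.6-fold, and Pcdh1, a protocadherin, 13.2-fold. Pphln1, a subunit of the silencing complex HUSH, rose 8.13-fold, and Arl4c, a small GTPase, 7.29-fold. In the other direction, Cobl, an actin nucleator, fell 15.3-fold from 5046 and 5170 to 319 and 347, Jam2, a tight junction adhesion molecule, fell 25.9-fold, and Nid1, a basement membrane protein, fell 17.8-fold. Non-overlap of the days was a condition for naming these rises and falls, and it held for all 1383 called genes.

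**Figure D3:**
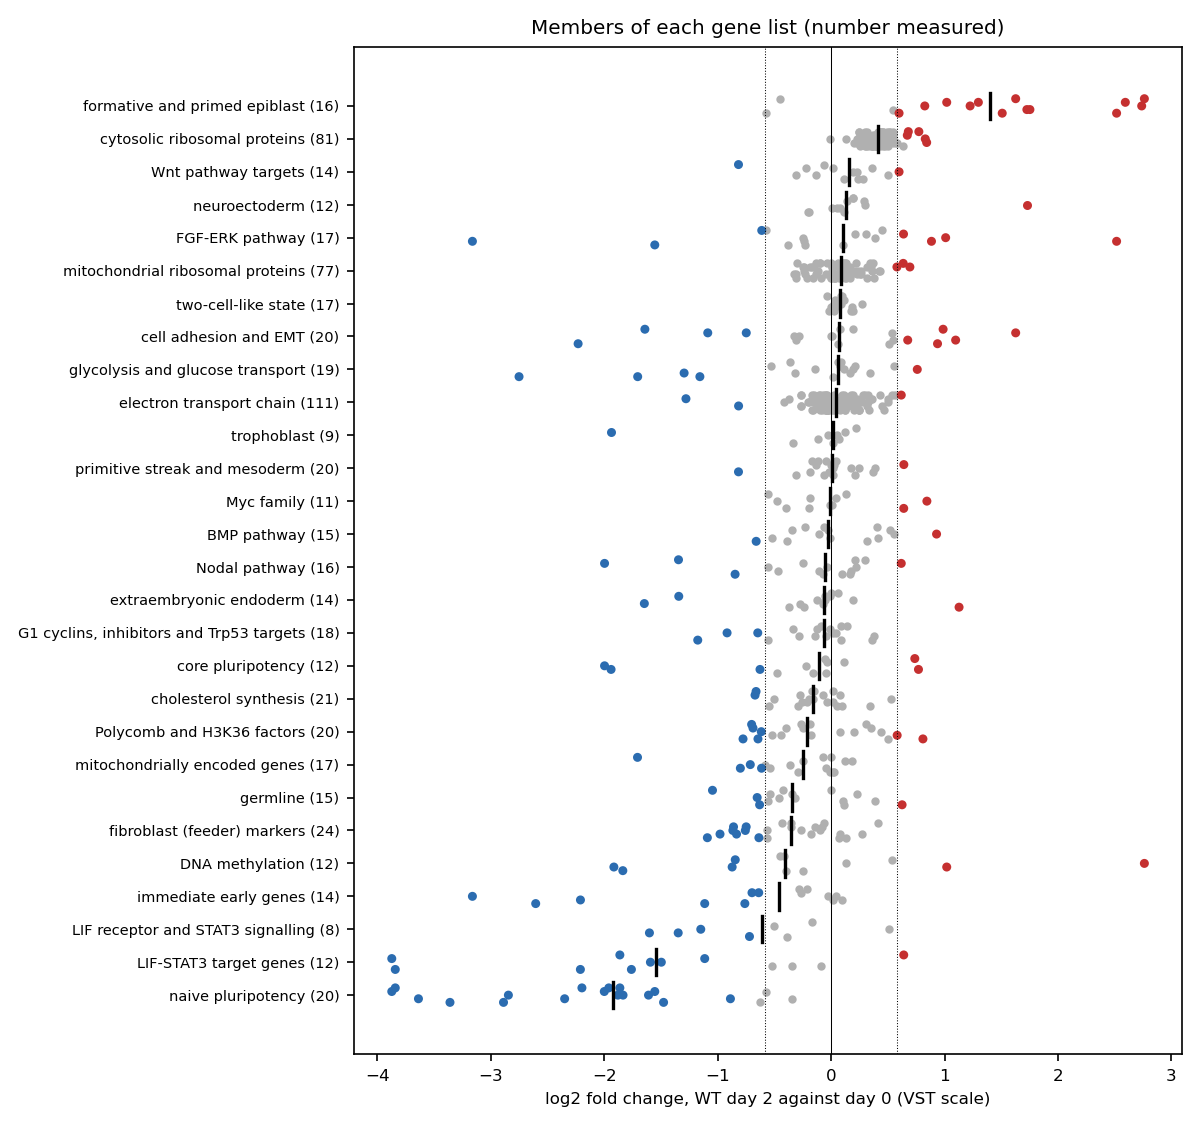
Log2 fold change from day 0 to day 2 in WT cells (VST scale) of each measured member of the 28 gene lists, ordered by the median of the list (black bar), with called genes in red (higher) or blue (lower) and the rest in grey. Dotted lines mark ±0.58. The lists run from a median of −1.92 in the naive genes to 1.40 in the formative genes, and most of the lineage lists lie near 0.

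Of 20 genes of the primitive streak and early mesoderm, 1 was called higher and 1 lower, a share not below that of all genes, with a median of 0.0083, and their summed level was 558 and 594 normalized counts at day 0 and 642 and 616 at day 2. T, or Brachyury, had 11.7 and 31.7 at day 0 and 24.4 and 21.1 at day 2, with overlapping days. Mixl1, a homeobox gene of the streak, had 5.03 and 5.75 at day 0 and 29.3 and 29.2 at day 2, and Eomes went from 107 and 99.3 to 228 and 227, both without being called. The member called higher was Wnt3, the ligand that starts the streak in the embryo, from 6.71 and 8.63 to 137 and 105, 15.8-fold. Cdx1, a caudal homeobox gene, was called lower, from 131 and 144 to 0 and 6.48. The other 18 members were not called on the VST scale, while limma-voom called 2 of the 20 higher and 2 lower, with Fgf8 and Snai1 in addition, and its median was 0.25. Of the 20, 4 had fewer than 10 counts over the 4 libraries.

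For neuroectoderm, 12 of 13 listed markers were measured and 1 was called, Nes, an intermediate filament of neural progenitors, which rose 6.67-fold from 294 and 380 to 2161 and 2337. The summed level of the 12, with Nes among them, was 1485 and 1492 normalized counts at day 0 and 3368 and 3433 at day 2. Of the 12, 10 had a positive fold change, with a median of 0.13 on the VST scale and 1.28 by limma-voom, which called 2 higher, Nes and Map2. Sox1, an early neural factor, had 53.7 and 63.3 at day 0 and 22.8 and 30.8 at day 2, and Pax6 had 72.1 and 57.5 at day 0 and 88.0 and 76.2 at day 2, neither being called. Of 14 extraembryonic endoderm genes, 1 was called higher and 2 lower. Dab2, an endocytic adaptor, rose 8.73-fold from 63.7 and 61.9 to 538 and 559, while the defining factor Gata6 was at 63.7 and 40.3 against 3.26 and 9.72, and Sox17 at 26.8 and 20.1 against 6.52 and 16.2. The 2 that fell, Lama1 and Lamc1, encode laminin chains. Gata6 had a log2 fold change of −0.37 and was not called on the VST scale, but limma-voom called it lower. Of 9 measured trophoblast genes, Tfap2c, an AP-2 factor also used by naive cells, was called lower, 18.1-fold. None of the 17 measured genes of the 2-cell-like state, a rare state of mESC cultures marked by Zscan4 genes, was called, and their sum was 787 and 903 at day 0 and 1211 and 1065 at day 2.

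Genes of DNA methylation changed in both directions. The de novo enzymes rose, Dnmt3b as given above and Dnmt3a 2.17-fold from 4594 and 4648 normalized counts to 9898 and 10127. The oxidases that start demethylation fell, Tet1 4.24-fold from 9453 and 10004 to 2056 and 2537 and Tet2 from 1936 and 1869 to 173 and 172 (limma with Benjamini-Hochberg adjustment, adjusted p = 7.04e-07 and 2.71e-09). Tet3 stayed at 339 and 449 against 476 and 468. Dnmt3l, the cofactor of the de novo enzymes, fell 1.93-fold from 7176 and 6947 to 3811 and 3511, and Gadd45b, a stress protein linked to demethylation, also fell. Neither Dnmt1, the maintenance enzyme, nor its partner Uhrf1 was called, at log2 fold changes of −0.39 and −0.41. In all, 2 of 12 rose and 4 fell, with a median of −0.40. Of 15 germline genes, many of which are silenced by promoter methylation in the postimplantation embryo, 3 fell and 1 rose, with a median of −0.34. Sohlh2, a bHLH factor of germ cells, fell from 706 and 757 to 143 and 149, and Dazl and Piwil2, which bind RNA and piRNA, fell 2.90-fold and 2.84-fold. Tdrd1, a tudor protein of the piRNA pathway, was the one that rose, from 45.3 and 17.3 to 163 and 207, and its fold change of 0.63 fell to 0.52 and 0.56 without the second library of day 0 or of day 2.

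In the FGF-ERK list, 4 of 17 genes were called higher and 3 lower, with a median of 0.10. The ligand Fgf4 fell as Fgf5 rose, and Fgf15 rose 3.91-fold from 85.5 and 67.6 to 329 and 269. The ERK phosphatases Dusp6 and Dusp4 rose 2.72-fold and 2.82-fold, Dusp6 from 788 and 762 to 2170 and 2042. Egr1 fell, as did Spry2, a feedback inhibitor, from 1541 and 1578 to 854 and 822, so the known ERK targets did not share one direction. None of the 4 receptors Fgfr1 to Fgfr4 was called.

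In the Nodal pathway, 3 of 16 genes fell and 1 rose, with a median of −0.05. Tdgf1 is given above, Pcsk6, a protease that processes Nodal, fell 5.27-fold from 1365 and 1387 to 277 and 245, and Smad7, an inhibitor, fell 2.36-fold. Foxh1, the nuclear partner of Smad2 and Smad3, rose 2.11-fold from 431 and 463 to 916 and 969. Nodal itself was at 1245 and 1292 against 1199 and 1170 and was not called, and Lefty2, its antagonist and target, had a log2 fold change of −0.56. Among 14 Wnt targets, Lef1 rose and Cdx1 fell, and Axin2, the general readout of the pathway, was at 289 and 299 against 499 and 395 without being called. Among 15 BMP genes the ligand Bmp4 fell 3.80-fold from 335 and 331 to 88.0 and 87.5, while Id1, a target of BMP, rose 4.67-fold from 127 and 129 to 701 and 499. These were the 2 BMP genes called on the VST scale, and limma-voom called 5 higher and 4 lower.

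Of 20 genes of adhesion and epithelial or mesenchymal shape, 5 were called higher and 4 lower, with a median of 0.07. The 5 that rose are all epithelial: the tight junction genes Cldn6, Cldn7 and Ocln and the simple keratins Krt8 and Krt18. Cldn6 rose 4.44-fold from 868 and 855 normalized counts to 3965 and 3692, and Krt18 3.68-fold from 332 and 377 to 1238 and 1373. Cdh1 or E-cadherin was at 8629 and 8990 against 12875 and 12821, without overlap, and was not called (log2 fold change 0.51), nor was Cdh2, given above, at 0.55. The 4 that fell were Fn1, Vim, Zeb1 and Itga5. Fn1 (ENSMUSG00000026193), or fibronectin, fell 5.28-fold from 20063 and 20432 to 3481 and 4195 (log2 fold change −2.23, SE 0.11, limma with Benjamini-Hochberg adjustment, adjusted p = 2.11e-12). Vim, the intermediate filament of mesenchymal cells, fell 3.87-fold from 6455 and 6491 to 1626 and 1718. Zeb1, a repressor of Cdh1, fell 13.6-fold from 400 and 394 to 29.3 and 29.2.

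Fibroblasts make Fn1, Vim, laminins and nidogen too. The feeder layer was withdrawn at the start of differentiation. RNA from it could be present at day 0, and the methods of the study do not say whether any feeder cells were carried over to day 2. Of 24 measured fibroblast markers, 8 were called lower and none higher, with a median of −0.35, and 19 of the 24 had a negative fold change. Their summed level was 9695 and 9540 normalized counts at day 0, 4530 and 4300 at day 2 and 17922 and 17011 at day 4, when the cells were still without feeders, and Thbs1 was the most abundant at day 0, with 1682 and 1742. Col1a1 had 1471 and 1493 at day 0 and 460 and 408 at day 2, and Col1a2 and Pdgfrb fell 3.58-fold and 4.38-fold. Col3a1 was at 107 and 92.1 against 52.1 and 35.7 and was not called. Of the 24, Lum alone was at 0 in both libraries of day 0, and Postn, at 33.5 and 25.9 at day 0, alone in both of day 2. limma-voom called 13 lower and 1 higher. The part of feeder RNA in the falls of Fn1, Vim, Lama1, Lamc1 and Nid1 was not tested, and fewer cells of a type and less RNA per cell cannot be told apart in these bulk libraries.

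In central metabolism the calls lay mostly at transport and at the first kinases. Of 19 glycolysis and glucose transport genes, 4 fell and 1 rose, with a median of 0.06, a sign that turned to −0.06 after quantile normalization. Pfkp, the platelet isoform of phosphofructokinase, had the most negative VST difference outside the naive and early response genes and fell 9.58-fold from 11240 and 11360 to 1219 and 1141 (log2 fold change −2.75, SE 0.07, limma with Benjamini-Hochberg adjustment, adjusted p = 1.95e-16). Both hexokinases fell, Hk1 4.71-fold from 4110 and 4077 to 834 and 903 and Hk2 2.64-fold from 12026 and 13083 to 4359 and 5148, as did the glucose transporter Slc2a3, 2.29-fold. The lactate exporter Slc16a3 rose, from 4661 and 4376 to 7895 and 8271, and Pkm and Gapdh were not called. In cholesterol metabolism, Insig1, which holds back the activation of the pathway, fell 1.79-fold, and no enzyme of cholesterol synthesis in the list was called.

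Among 18 G1 cyclins, inhibitors and targets of Trp53, 3 fell and none rose. Cdkn1a or p21 fell 3.64-fold from 1654 and 1672 to 473 and 441, and Ccnd3, a D-type cyclin, 2.21-fold. Trp53inp1, a p53-induced stress gene, fell from 6367 and 6697 to 3679 and 4237, and its fold change of −0.65 came to −0.56 without the first library of day 2. In the Myc family, Mycl rose 2.73-fold in addition to Myc, and Mycn, the N-Myc gene, had 2312 and 2128 at day 0 and 2364 and 2122 at day 2. The median of the 11 family members was −0.01.

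Among 20 Polycomb and H3K36 factors, 5 fell and 2 rose, with a median of −0.22. The 5 that fell belong to Polycomb repressive complex 2, which methylates H3K27: its core subunits Ezh2, Eed and Suz12 and its accessory subunits Jarid2 and Mtf2. Each fell by a similar small amount, from 1.70-fold in Jarid2 to 1.87-fold in Mtf2, with Suz12 going from 5367 and 5483 normalized counts to 3042 and 3230. After quantile normalization 3 of the 20 were called lower. Kdm2b, which recruits a variant of Polycomb repressive complex 1 to CpG islands, rose 2.03-fold from 1601 and 1587 to 3086 and 3381, and Cbx6 rose 1.72-fold. Nsd1, the H3K36 dimethyltransferase that the series is about, had 3374 and 3660 at day 0 and 2773 and 3344 at day 2 in these WT cells (log2 fold change −0.17, SE 0.13, limma with Benjamini-Hochberg adjustment, adjusted p = 0.310). The days did not overlap for Nsd1, but their distance was of the order of the distance between the replicates of day 2.

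Cytosolic ribosomal protein genes had small positive fold changes. Of 81 cytosolic ribosomal protein genes, 80 had a positive fold change and 5 were called higher, with a median of 0.42. Their summed level was 691720 and 720730 normalized counts at day 0 and 1041500 and 893170 at day 2, so that the 2 libraries of day 2 differed from each other by more than those of day 0. Rpl13a rose 2.18-fold from 1115 and 1155 to 2513 and 2447. After quantile normalization 1 of the 81 was called and the median was 0.35. Of 77 mitochondrial ribosomal protein genes 3 rose (median 0.09), and of 111 electron transport chain genes 1 rose and 2 fell (median 0.04). Ndufa4l2, a paralog of a complex IV subunit that hypoxia induces, fell 9.96-fold from 814 and 563 to 86.4 and 51.9. Of 17 genes of the mitochondrial genome 4 fell (median −0.25), and mitochondrial transcripts took 1.71% and 1.95% of the counts at day 0 and 1.18% and 1.21% at day 2. The ribosomal RNA mt-Rnr2 fell 3.51-fold from 18419 and 21035 to 4981 and 6272. Several of these calls were lost when a library was left out, in part at a fold change as large as before. Without the first library of day 2 those of Rps3 (0.59), Rpl41 (0.66), Mrpl13 (0.52), Mrpl34 (0.48), Uqcrh (0.51), mt-Nd5 (−0.74) and mt-Tp (−0.60) were lost, without its second library those of mt-Co1 (−0.69) and mt-Tp (−0.63). Without the first library of day 0 those of Rps3 (0.64), Rpl41 (0.80) and mt-Tp (−0.62) were lost, and without its second library those of Rpl41 (0.86), Mrpl34 (0.51), Uqcrh (0.57), mt-Nd5 (−0.71), mt-Co1 (−0.60) and mt-Tp (−0.60). That of mt-Tp was also lost with limma-voom (adjusted p = 0.0941).

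The same interval was compared in the KO cells, which lack functional Nsd1 by design. Over the whole gene, Nsd1 had 718 ± 85.4 normalized counts in KO at day 0 and 942 ± 71.2 at day 2 (SD, n = 4 libraries of 2 clones), below the WT libraries, although the deletion takes out a single exon. The 4 KO libraries of day 2 and the 4 of day 0 gave 662 called genes (3.20%), with both clones pooled. Of the 1383 genes called in WT, 429 (31.0%) were called in the same direction in KO, which is 64.8% of the KO list and 2.07% of all genes. The difference between the WT and the KO change, tested in the same fit with no library in common, was called for 660 genes (3.19%), 230 with a higher (1.11%) and 430 with a lower value in WT (2.08%). limma-voom called 1520 (7.34%), 673 with a higher and 847 with a lower value in WT. After centring on the median, 189 were higher and 515 lower.

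**Figure D4:**
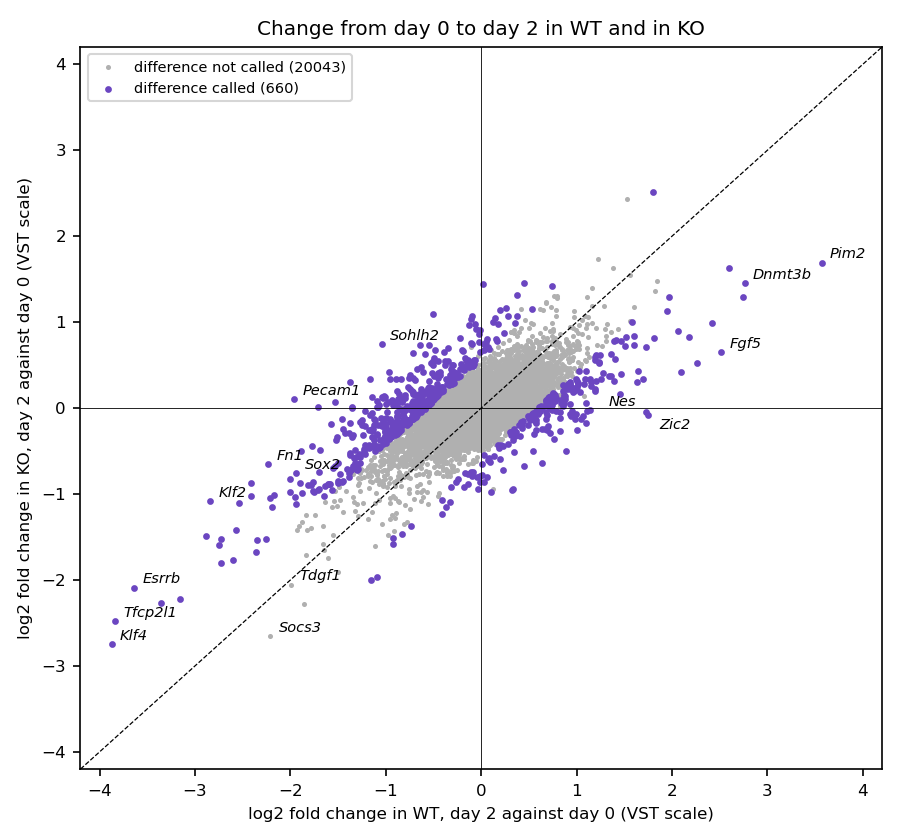
Log2 fold change from day 0 to day 2 in the 4 KO libraries of each day against that in the 2 WT libraries of each day (VST scale), with the 660 genes whose changes were called different in purple and equal changes on the dashed line. Klf4, Esrrb, Dnmt3b and Pim2 changed in the same direction in both and by less in KO, Socs3 and Tdgf1 lie near the line, and Pecam1, Nes and Zic2 have a KO change near 0.

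Of the 20 naive genes, 13 had a more negative change in WT. Their median was −1.92 in WT and −1.11 in KO. Klf4 went from 9252 ± 327 to 894 ± 132 normalized counts in KO (SD, n = 4), and the difference between the changes was −1.12 (SE 0.16, limma with Benjamini-Hochberg adjustment, adjusted p = 3.54e-05). For Esrrb the difference was −1.55 and for Klf2 −1.76. Of the 12 LIF targets, 4 had a more negative change in WT, Klf4, Tfcp2l1, Sgk1 and Pim3, and Myc a more positive one. limma-voom did not call that of Sgk1 (adjusted p = 0.0254). The KO change of Socs3 was −2.65 beside −2.21 in WT and that of Klf5 −2.28 beside −1.86, and neither difference was called. In the pathway to STAT3, that of Stat3 itself was −1.75 beside −1.60, also without a called difference. The receptor chain Il6st fell in WT, with a KO change of −0.05, and the difference of −1.10 was called. Of the 14 immediate early genes, 7 fell in each genotype, with medians of −0.46 and −0.55, and Fos, Fosb and Egr1 were called for a deeper fall in WT.

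Of the 16 formative genes, 9 rose by more in WT, and Tcf15 differed in the other direction. Their median was 1.40 in WT and 0.67 in KO. Fgf5 reached 107 ± 87.8 in KO from 2.58 ± 2.12 (SD, n = 4), and the difference was 1.87 (SE 0.26, limma with Benjamini-Hochberg adjustment, adjusted p = 2.77e-05). limma-voom did not call that of Fgf5 (adjusted p = 0.448), and it called 6 of the 9. The largest positive difference was that of Pim2, at 1.88, with a KO level that went from 1532 ± 304 to 6215 ± 199. Some differences came with KO levels that were already apart from WT at day 0. Zic2 had 2903 ± 370 in KO at day 0 and 2715 ± 185 at day 2, beside 787 at day 0 and 3982 at day 2 in WT. Nes had 817 ± 140 and 772 ± 93.0. Pecam1, with the most negative difference at −2.06, had 292 ± 111 in KO at day 0 and 340 ± 103 at day 2, where the WT cells fell from 2174 to 211.

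In the adhesion list of 20, 8 genes had a higher value in WT (among them Cldn6, Krt18, Cdh1 and Epcam) and 4 a lower one (among them Fn1 and Zeb1), of which limma-voom called all but Cdh1, and no KO change of the list was called higher. Sohlh2 fell in WT and rose in KO, with a difference of −1.79, and mt-Rnr2 had a KO change of 0.01 and a difference of −1.71. No gene of the cytosolic ribosomal proteins was called for a difference, with medians of 0.42 in WT and 0.06 in KO. The fibroblast markers went the other way, with 17 of 24 called lower in KO, where 1.77% of all genes were, and 5 called for a larger fall in KO, Col1a1, Col1a2, Col3a1, Col6a2 and Thy1. limma-voom called the difference for the last 2 and not for the 3 others (adjusted p = 0.0265, 0.0626 and 0.0414). Their summed mean level was 16066 in KO and 9617 in WT at day 0 and 4589 and 4415 at day 2.

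The change of the second interval, from day 2 to day 4, was set against that of the first in WT. These changes share the libraries of day 2, so an error there enters them with opposite signs, and the difference between them was tested. It was called for 3314 genes (16.0%), 58.0% of them with a higher change in the second interval, against 44.3% of those called by limma-voom.

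**Figure D5:**
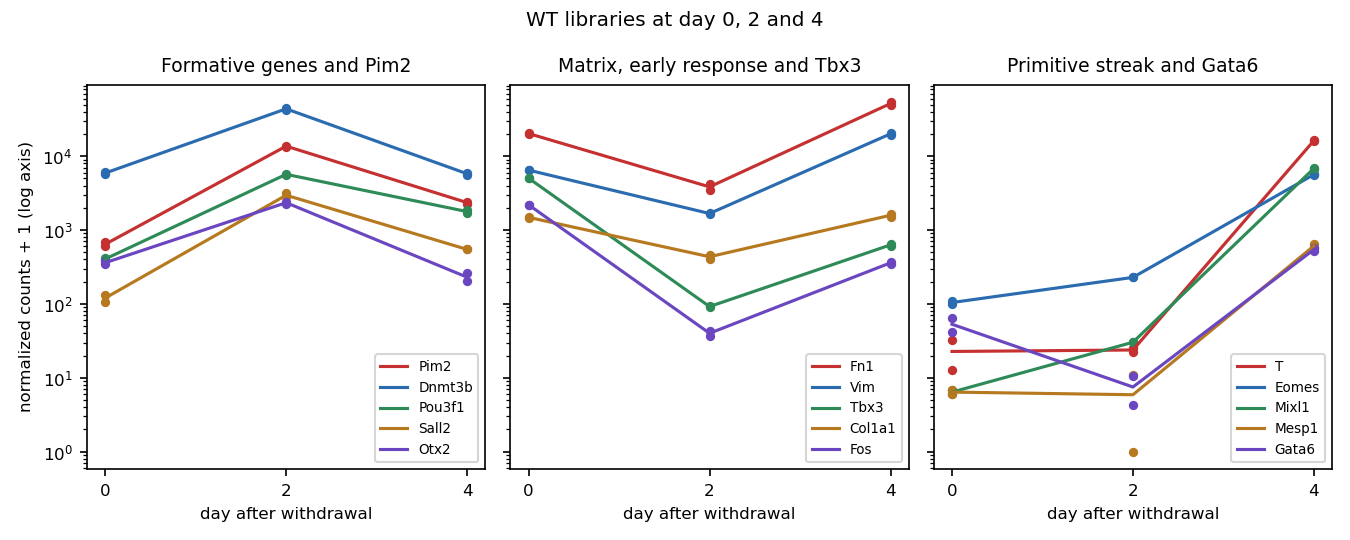
Normalized counts plus 1 on a log axis in the 2 WT libraries of day 0, 2 and 4 (points) with lines through the day means. Dnmt3b, Pim2, Pou3f1, Sall2 and Otx2 peak at day 2, Fn1, Vim, Tbx3, Col1a1 and Fos are lowest at day 2, and T, Mixl1, Mesp1 and Eomes are high at day 4 alone.

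The lowest differences were those of Pim2 at −5.84, Dnmt3b at −5.55, Sall2 at −4.29 and Pou3f1 at −4.14, all of which rose to day 2 and were lower again at day 4. Dnmt3b had 5919 and 5640 normalized counts at day 4, within the range of its day 0 libraries or just under it. Fgf5 was kept at 1102 and 1119 at day 4, and Otx2 was back at 258 and 200. The highest difference was that of Fn1 at 5.78, from its low of 3481 and 4195 at day 2 to 54170 and 49015 at day 4. T followed at 5.29, with 16441 and 16055 normalized counts at day 4, then Vim at 4.82 and Tbx3 at 4.47. Of the 20 streak genes, 17 were called higher from day 2 to day 4, beside a share of 5.69% of all genes called higher in that interval. Klf4 was at 103 and 112 at day 4, not called against day 2, and Esrrb and Sox2 fell further. Among the LIF genes, Il6st was back at 2928 and 2792 and Klf5 at 2393 and 2308 at day 4, while Socs3 was at 169 and 224.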

How the data were processed

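RNA was polyA-selected and sequenced in 18 libraries. Per the labels and methods, the authors used Trim Galore 0.6.7, STAR 2.7.11a on mm39, featureCounts 2.0.6 and DESeq2 1.42.0, dropped genes of low average count, and deposited variance stabilized (VST) log2 values for 20703 genes. From the floor of 8.36, the values were turned back into counts, which were whole within 0.01 for 100% of values. Total counts ran from 9309874 to 23921193. Of the counts from 1 to 20 in a library, 72.5% to 77.5% were even, so a count may not stand for 1 fragment. The cause was not tested.

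limma 3.58.1 in R 4.3.3 was fitted to all 18 libraries in 6 groups (genotype and day, clones pooled), with a trended prior. limma-voom on the counts was the main alternative. On simulated data for this comparison (20703 genes, 200 changed), the VST fit called 86 changed genes, 62 of 62 with a mean over 300, and 0 of 20503 unchanged ones, and limma-voom called 124 and 2.

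Members and lists were chosen with earlier results of these data known. Named genes are the 12 largest rises and the 12 largest falls among called genes whose days did not overlap. Also named are up to 4 called members of each list, genes that place the cells, and the 4 largest differences per direction. Other members named were picked after their values were seen. One gene that the rule names is not reported here. Lists are described by counts and medians, without a test. DESeq2 and edgeR were not run here. Figures used matplotlib 3.10.9.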

Additional observations from a re-analysis of the deposited data

Results flagged for a closer look

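The difference between the change from day 0 to day 2 in WT and that in KO was called by limma for 660 genes, and 55 of the genes named by rule and reported here were among them. Each value below is the WT change minus the KO change on the VST (log2) scale. limma-voom called 44 of the 55, and not Fgf5, Otx2, Enpp2, Pcdh1, Arl4c, Car4, Tdrd1, Mrpl12, Col1a1, Col1a2 or Col3a1, whose adjusted p ranged from 0.0106 in Mrpl12 to 0.664 in Car4. Among naive and pluripotency genes, more negative changes in WT were found for Klf4 at −1.12, Tfcp2l1 at −1.36, Esrrb at −1.55, Tbx3 at −1.09, Zfp42 at −1.40, Klf2 at −1.76, Nanog at −0.81 and Pecam1 at −2.06, and for Sox2 at −1.18 and Tfap2c at −0.83. Some formative genes had more positive changes in WT, with Dnmt3b at 1.31, Pou3f1 at 1.44, Sall2 at 0.97, Fgf5 at 1.87, Otx2 at 1.01 and Zic2 at 1.83, as had Foxd3, of the core list, at 0.67. Other positive differences were those of Pim2 at 1.88, Kif1a at 1.42, Sema6a at 1.74, Enpp2 at 1.35, Pphln1 at 1.67, Pcdh1 at 1.16, Arl4c at 0.67 and Car4 at 0.82. In adhesion and neural progenitor genes, the difference was positive for Cldn6 at 1.32, Krt18 at 1.27 and Nes at 1.77 and negative for Fn1 at −1.58, Jam2 at −1.15, Cobl at −1.21, Nid1 at −0.93, Lamc1 at −0.65 and Sox1 at −0.86. In signalling, it was Il6st at −1.10 and Tyk2 at −0.74 for the LIF receptor, Egr1 at −0.94, Fos at −0.84 and Fosb at −1.16 for the early genes, and Dusp6 at 0.72, Myc at 0.88 and Cdx1 at −0.78. In metabolism and the Trp53 targets the values were Pfkp at −1.16, Hk1 at −0.76, Cdkn1a at −0.92 and Trp53inp1 at −1.38. Germline genes differed in both directions, with Sohlh2 at −1.79 and Tdrd1 at 0.60, and mitochondrial genes as well, with mt-Rnr2 at −1.71, mt-Nd5 at −0.95, mt-Co1 at −0.79 and Mrpl12 at 0.58. On the VST scale 3 named fibroblast collagens had a larger fall in KO, with Col1a1 at 0.87, Col1a2 at 0.63 and Col3a1 at 0.59, and their KO libraries of day 0 held more fibroblast marker RNA than the WT libraries, a summed mean of 16066 against 9617 normalized counts. No cause of these differences was tested.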

How the results depend on the processing

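The 1383 genes called between day 2 and day 0 in WT, the 660 with a different change in KO and the 3314 with a different change in the second interval moved by more than 1.5 times with the fold change threshold. The first 2 counts also did so with limma-voom, which changes the unit and the weighting of the values at once. With limma-voom they were 4043 and 1520, scaled by library totals 4016 and 1509, and on counts thinned to 9309874 per library 4286 and 1567. With a threshold of 1 on the log2 fold change the 3 counts were 367, 132 and 1238, and with none 5922, 2547 and 5335. Without one WT library they ranged from 1366 to 1406, from 606 to 663 and from 2869 to 3202. With the 2 KO lines in separate groups they were 1396, 700 and 3540, and with a replicate block 1380, 651 and 3272. The replicate numbers are shared by label alone, the differences between replicates of day 0 and day 2 correlated with r = 0.128 across 10352 genes, which are not independent, and the block is not taken as a pairing. For the change from day 0 to day 2 in WT, none of 105 genes named by rule changed direction under any alternative run, and 99 were called. Of their 1575 values under alternatives, 46 lost the call, in 16 genes, 13 of which did so with only the 4 WT libraries of the 2 days, and Gata6 gained it under the limma-voom settings. In the simulation, whose changes were set large, the VST fit called 62 of 62 changed genes with a mean over 300 and 86 of 200 over all levels. The parts of scale, depth and replicate number in the missed calls were not tested.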
